A study of Mus musculus with 6 samples.

Results

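The 10 genes described here encode the channels, pumps and sensors of the intracellular calcium store, and they were chosen by name: the IP3 receptor genes Itpr1 and Itpr2, the ryanodine receptor genes Ryr1, Ryr2 and Ryr3, the SERCA pump genes Atp2a2 and Atp2a3, the sensor genes Stim1 and Stim2, and the channel gene Orai1. All 10 were found among the 54281 genes of the count table, of which 27044 had a count in at least 1 library. The table holds 6 libraries of GLUTag cells, a murine enteroendocrine line from a tumour of the large bowel driven by large T antigen under the proglucagon promoter, which is used as a model of the L-cell. All were untreated and of a single condition, cultured for 48 h before lysis in medium that held 10% FBS and glucose at 1 g/L. Plate 1 gave 3 libraries of cells at passage 23, and plate 2 gave 3 libraries of cells at passage 27. Plate therefore cannot be told apart from passage. Nothing states that the libraries of a plate came from separate cultures. A p-value therefore measures the spread between these libraries, which may be technical. The library kit reads the 3′ end of polyadenylated transcripts, so a count stands for a transcript end, and levels of different genes were compared as CPM, the count scaled to a common library total, without division by length. In RNA from many cells, fewer cells that express a gene and less RNA per cell cannot be told apart.

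The endoplasmic reticulum holds calcium at a far higher concentration than the cytosol. IP3 receptors release it when phospholipase C, activated by hormone, nutrient or neurotransmitter receptors, makes IP3, and ryanodine receptors release it in answer to calcium itself. SERCA pumps return calcium to the store at the cost of ATP. When the store empties, STIM proteins in its membrane sense the loss and open ORAI channels in the plasma membrane, a route known as store-operated entry. Calcium in the cytosol is a trigger of hormone release in endocrine cells, L-cells included.

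The total count lay between 21399987 and 36488198 per library, and where no read was counted the limit of 3 counts corresponds to 0.0822 to 0.14 CPM (counting error only). Plate 2 libraries are named as having the lowest, middle or highest total, since their replicate numbers were not resolved. The one with the middle total stood apart. Of the 5031 genes averaging 30 CPM or more, 354 fell below the mean of its plate mates by over 2-fold and 2 lay above it by over 2-fold, against at most 3 such lower genes in each other library. The library with the highest total had 49 genes over 2-fold above the mean of its plate mates, which include the one that stood apart, and the other libraries had at most 4. Of 12 enteroendocrine marker genes 11 had at least 1 CPM in every library, and the exception was Pyy with 0.263 ± 0.179 CPM (SD, n = 6). None of 6 enterocyte markers and none of 4 blood markers reached that level in every library. Among the other markers Tff3 (37.8 CPM), Col1a2 (5.87 CPM) and Acta1 (4.29 CPM) did, and all other genes of the goblet and Paneth, fibroblast and striated muscle lists had a mean of at most 0.241 CPM.

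GLUTag cells held transcripts of at least 1 gene of every step of the store, with a single leading gene among the IP3 receptors and the pumps. Ryr3 had the most counts of the ryanodine receptor genes, but its level is uncertain, since its 3′ end overlaps another gene. The SERCA2 gene Atp2a2 was highest, followed by Stim2, Itpr1 and Stim1, while Orai1, Ryr3 and Itpr2 were at most 7.67 CPM in any library and Atp2a3, Ryr1 and Ryr2 were under 1 CPM. At least 1 CPM in every library was found for 7 of the 10 genes. Over all genes with a count the share was 45.7%, and over protein-coding genes with a count it was 65.6%, so this count is close to that of protein-coding genes at large. 8 of the 10 had more than 3 counts in all 6 libraries, as did 77 of the 98 genes around the store described below. The share over all genes was not computed at this limit. Together the 10 genes had 297 ± 74.3 CPM (SD, n = 6), of which Atp2a2 made up 42.2%, Stim2 20.5%, Itpr1 16.4% and Stim1 15.9% (means of 6 libraries). By mean level Atp2a2 ranked 1304 and Ryr2 19825 among the 27044 genes with a count.

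**Figure D1:**
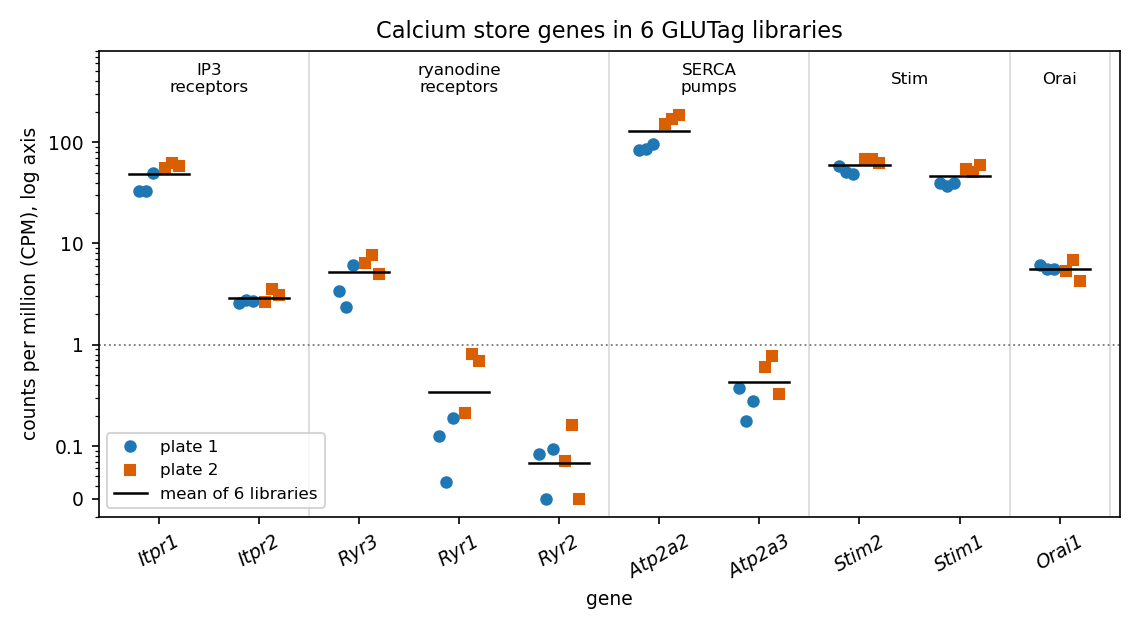
Levels of the 10 calcium store genes in CPM on a log axis, with a point for each library (circles plate 1, squares plate 2) and a bar for the mean of 6 libraries; counts of 0 are drawn at the foot of the axis and the dotted line is at 1 CPM. Atp2a2 lies highest at 84.4 to 184 CPM, and Atp2a3, Ryr1 and Ryr2 lie under 1 CPM in every library.

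In the order of the means, neighbouring genes were often not separated. Atp2a2 was above Stim2 in 6 of 6 libraries and their ranges did not overlap. Stim2 was above Itpr1 in 5 of 6 libraries, and Itpr1 was above Stim1 in 3 of 6. The ranges overlapped for both pairs, and neither pair was tested. A gap followed, with Stim1 above Orai1 in 6 of 6 libraries and no overlap. Orai1 was above Ryr3 in only 2 of 6 libraries, although its mean was higher, and Ryr3 was above Itpr2 in 5 of 6. Itpr2 was above Atp2a3 in each library without overlap. Atp2a3 was above Ryr1 in 4 of 6 libraries, and Ryr1 above Ryr2 in 6 of 6 with overlapping ranges.

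The sequences before the start of these genes differed in their content of CG dinucleotides, the letters at which vertebrate DNA is methylated and which are dense in the promoters of widely expressed genes. RefSeq promoters on GRCm38.p6, from 250 bases before to 50 bases after the start, were on hand for 7 of the 10 genes, all but Atp2a2, Itpr1 and Ryr3. The following are shown as examples of a gene with a high level, a gene with a low level and a gene near the detection limit. These are the promoters of Stim2 (chr5:53998273-53998572, plus strand), Orai1 (chr5:123014824-123015123, plus strand) and Ryr1 (chr7:29125102-29125401, minus strand), 5′ to 3′ with each CG in capitals.
Stim2: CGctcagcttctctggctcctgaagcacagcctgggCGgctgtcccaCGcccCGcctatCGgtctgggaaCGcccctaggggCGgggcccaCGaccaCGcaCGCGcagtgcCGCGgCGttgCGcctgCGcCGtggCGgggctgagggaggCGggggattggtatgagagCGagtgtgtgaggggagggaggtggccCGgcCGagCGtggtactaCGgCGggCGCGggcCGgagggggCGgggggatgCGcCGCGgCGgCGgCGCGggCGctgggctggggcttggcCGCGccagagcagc
Orai1: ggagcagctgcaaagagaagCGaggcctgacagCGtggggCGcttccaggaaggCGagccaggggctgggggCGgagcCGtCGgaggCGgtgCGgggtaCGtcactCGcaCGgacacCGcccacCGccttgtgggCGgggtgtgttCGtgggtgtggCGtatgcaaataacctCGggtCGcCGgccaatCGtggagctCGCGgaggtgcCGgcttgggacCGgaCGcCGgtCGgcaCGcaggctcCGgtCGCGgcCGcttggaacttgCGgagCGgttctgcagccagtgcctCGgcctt
Ryr1: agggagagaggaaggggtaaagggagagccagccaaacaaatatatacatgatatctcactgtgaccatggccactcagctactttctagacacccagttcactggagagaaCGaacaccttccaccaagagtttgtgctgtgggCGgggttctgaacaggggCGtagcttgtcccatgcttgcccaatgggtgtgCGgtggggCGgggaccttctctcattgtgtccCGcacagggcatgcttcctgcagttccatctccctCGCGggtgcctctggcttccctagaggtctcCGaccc
CG reads the same on both strands. It was found 39 times in the 300 bases of Stim2, 38 times in those of Stim1 and 36 times in those of Orai1, and 4.45%, 4.95% and 6.23% of all 32851 promoters of the table hold at least as many. Itpr2 had 26 and Atp2a3 25, which are reached by 16.9% and 18.4% of promoters. Ryr2 had 18 (29.7%) and Ryr1 had 9 (45.8%), against a median of 7 over all promoters. Atp2a3 and Itpr2 thus had nearly the same CG content, with mean levels of 0.424 and 2.88 CPM. Ryr2 had more CG than Ryr1 at a lower mean level, 0.0683 against 0.344 CPM. The printed promoters therefore do not stand for a steady order of CG content with level. The letters TATAAA were found on neither strand of any of the 7, and 13.6% of all promoters hold them. These are descriptions of sequence, and methylation was not measured.

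Among the release channels, Itpr1, which encodes the type 1 IP3 receptor common in neurons, led its family. Itpr1 (ENSMUSG00000030102, chromosome 6 of GRCm38, 108213096 to 108551109, plus strand) had 33.0, 32.9 and 49.5 CPM in replicates 1, 2 and 3 of plate 1. On plate 2 it had 55.9, 62.2 and 58.0 CPM in the libraries with the lowest, middle and highest total. The plate 2 libraries were all above those of plate 1 in CPM, but the plates overlapped after TMM scaling, which the plate test below uses. Without that scaling the median log2 change over all genes tested was 0.30, and the share of all genes without overlap in CPM was not computed. The counts of Itpr1 were 744 to 2116. Itpr2 (ENSMUSG00000030287, chromosome 6, 146108299 to 146502223, minus strand), the type 2 receptor with the highest affinity for IP3, stayed between 2.58 and 3.56 CPM with 58 to 112 counts. Its mean was 2.88 ± 0.372 CPM (SD, n = 6), a coefficient of variation of 12.9%. Itpr3, the type 3 receptor gene, lay between 0.972 and 4.85 CPM. Within the family Itpr1 held 89.1 ± 1.37% of the counts (SD, n = 6), Itpr2 5.54 ± 1.3% and Itpr3 5.35 ± 1.59%.

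Each comparison between genes of a family was made within the library as the difference of log2(CPM + 1). The exact permutation test was two-sided and flipped the signs of the 6 differences, so its smallest p is 0.03125, with Benjamini-Hochberg adjustment over 12 pairs, of which 9 had an adjusted p under 0.05. The test treats the 6 libraries as independent. All 9 had the smallest p, so the adjusted p they share depends on how many pairs reached it and not on the size of a difference. Among the 9 are pairs with Atp2a1 or Ryr2, which were at the detection limit, and the adjustment was not repeated without them. Itpr1 was above Itpr2 by 3.64 ± 0.34 on the log2 scale (SD, n = 6) in 6 of 6 libraries (exact p = 0.03125, adjusted p = 0.0417). It was above Itpr3 by 3.66 ± 0.29 in 6 of 6 libraries with the same exact p. Itpr2 and Itpr3 were not separated: the mean difference was 0.02 ± 0.5 (SD, n = 6), with Itpr2 higher in 3 of 6 libraries (exact p = 0.9375). The direction followed the plate, with Itpr2 higher by 0.39 on plate 1 and at -0.34 on plate 2, each a mean of 3 libraries.

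**Figure D2:**
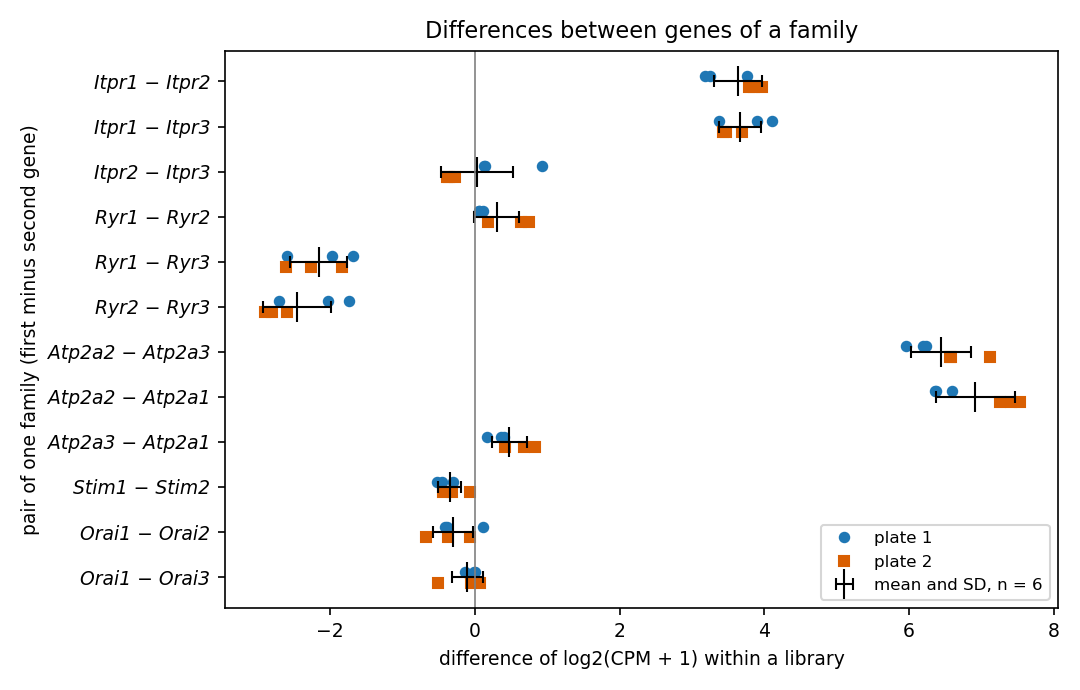
Difference of log2(CPM + 1) between genes of the same family within each library, first minus second gene, for 12 pairs; points are libraries (circles plate 1, squares plate 2) and black marks are the mean and SD of 6 libraries. Differences of Atp2a2 from the other SERCA genes are largest at 6.44 and 6.92, and those of Itpr2 from Itpr3 fall on both sides of 0.

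Of the ryanodine receptors, only Ryr3, the broadly expressed isoform first known from brain, reached 1 CPM. Ryr3 (ENSMUSG00000057378, chromosome 2, 112631355 to 113217096, minus strand) had 3.42, 2.34 and 6.17 CPM in plate 1 replicates 1, 2 and 3 and 6.45, 7.67 and 5.04 CPM on plate 2 in the order of the totals. The plates overlapped, with 53 to 237 counts per library. Its level is uncertain, because exons at its 3′ end share 916 bases (112631355 to 112633122, gaps included) with exons of Aven, a cell death regulator gene on the opposite strand with 19.2 ± 2.79 CPM (SD, n = 6). The library kit keeps the strand of the transcript, but the strand setting of the counting is not given in the sources used here, and whether reads of Aven were counted for Ryr3 was not tested. The end of the SERCA gene Atp2a1 likewise lies over exons of Rabep2 on the opposite strand. Rabep2 had a mean of 9.67 CPM and Atp2a1 at most 1 count in a library. Whether reads of Rabep2 were counted for Atp2a1 was not tested, and no reading for Ryr3 was taken from this gene pair.

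Ryr1 (ENSMUSG00000030592, chromosome 7, 29003344 to 29125179, minus strand), the skeletal muscle isoform, had 3, 1 and 4 counts in plate 1 replicates 1, 2 and 3. On plate 2 it had 6, 25 and 25 counts in the order of the totals, or 0.214 to 0.809 CPM, against 0.0442 to 0.187 CPM on plate 1, and after TMM scaling the plates overlapped. Ryr2 (ENSMUSG00000021313, chromosome 13, 11553102 to 12106945, minus strand), the cardiac isoform, had 2, 0 and 2 counts on plate 1 and 2, 5 and 0 on plate 2. Apart from the 5 counts in the library with the middle total, it was within what a count of 0 allows and thus not detectable at this depth. Ryr3 held 93.4 ± 4.1% (SD, n = 6) of the ryanodine receptor counts. On the log2 scale Ryr1 minus Ryr3 was -2.16 ± 0.39 and Ryr2 minus Ryr3 was -2.46 ± 0.47 (each SD, n = 6), with Ryr3 higher in 6 of 6 libraries (exact p = 0.03125, adjusted p = 0.0417 for both). Ryr1 was above Ryr2 by 0.30 ± 0.31 in 6 of 6 libraries with the same exact p, a difference that rests on a few counts. The summed IP3 receptor genes had 54.5 ± 14.4 CPM and the ryanodine receptor genes 5.59 ± 2.26 CPM (each SD, n = 6). Their ratio lay between 8.17 and 15.3 over the libraries.

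Of the SERCA pumps, nearly every count fell on Atp2a2, the gene of SERCA2, whose isoforms serve the heart and most other tissues. Atp2a2 (ENSMUSG00000029467, chromosome 5, 122453513 to 122502225, minus strand) had 84.4, 85.1 and 95.2 CPM in plate 1 replicates 1, 2 and 3 and 151, 169 and 184 CPM in the plate 2 libraries with the lowest, middle and highest total. The plates did not overlap, also after TMM scaling, where plate 2 lay wholly above plate 1 for 12.8% of all genes tested. The counts were 1926 to 6725. Atp2a3 (ENSMUSG00000020788, chromosome 11, 72961169 to 72993044, plus strand), the gene of SERCA3, which is known from blood cells, epithelia and pancreatic beta cells, had 9, 4 and 6 counts on plate 1 and 17, 24 and 12 on plate 2. That was 0.177 to 0.776 CPM, above 3 counts in every library but far under Atp2a2. Atp2a1, the pump gene of fast skeletal muscle, had a single count in plate 1 replicates 1 and 2 and a count of 0 elsewhere. Atp2a2 held 99.7 ± 0.122% of the counts of the family (SD, n = 6). It was above Atp2a3 by 6.44 ± 0.41 on the log2 scale (SD, n = 6) in 6 of 6 libraries (exact p = 0.03125, adjusted p = 0.0417). This size depends on the pseudocount, and it was 7.97 with 0.1 CPM and 4.55 with 5 CPM. Against Atp2a1 the differences were 6.92 for Atp2a2 and 0.48 for Atp2a3, with 6 of 6 libraries and the same exact p, and both are set by the pseudocount, since Atp2a1 was not detectable. The SERCA genes summed to 2.12 ± 0.333 times the level of all IP3 and ryanodine receptor genes together (SD, n = 6).

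The store sensors were both well above the channel they open. Stim1 encodes the main sensor of store depletion, and Stim2 a sensor that answers to smaller falls in store calcium. Stim1 (ENSMUSG00000030987, chromosome 7, 102267806 to 102437319, plus strand) had 40.0, 36.9 and 39.2 CPM in plate 1 replicates 1, 2 and 3 and 54.1, 50.3 and 59.2 CPM on plate 2 in the order of the totals. Stim2 (ENSMUSG00000039156, chromosome 5, 53998499 to 54121057, plus strand) had 57.7, 50.9 and 48.6 CPM on plate 1 and 67.6, 68.5 and 62.3 CPM on plate 2. For both genes the plate 2 libraries lay above those of plate 1 in CPM, a scale on which the share over all genes was not computed. After TMM scaling this held for Stim1, and the plates overlapped for Stim2. Stim2 exceeded Stim1 in every library, and Stim1 minus Stim2 was -0.35 ± 0.16 on the log2 scale (SD, n = 6, exact p = 0.03125, adjusted p = 0.0417). The ratio of their CPM was 1.29 ± 0.14 (SD, n = 6) and was smallest, at 1.05, in the plate 2 library with the highest total.

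Orai1 (ENSMUSG00000049686, chromosome 5, 123015074 to 123030456, plus strand), which encodes the pore of the classical store-operated channel, had 6.13, 5.57 and 5.61 CPM in plate 1 replicates 1, 2 and 3 and 5.31, 6.79 and 4.22 CPM on plate 2 in the order of the totals. The plates overlapped, with 120 to 210 counts per library. Orai1 did not lead its paralogs: Orai2 had 7.12 ± 0.792 CPM and Orai3 6.07 ± 0.381 CPM (each SD, n = 6). The difference of Orai1 from Orai2 was -0.30 ± 0.28 on the log2 scale (SD, n = 6) with Orai2 higher in 5 of 6 libraries (exact p = 0.09375, adjusted p = 0.113). That from Orai3 was -0.11 ± 0.21 (SD, n = 6), with Orai3 higher in 4 of 6 libraries and equal counts in plate 1 replicate 1 (exact p = 0.3125, adjusted p = 0.341). Orai1, Orai2 and Orai3 held 29.8%, 37.9% and 32.3% of the counts of the family. Orai2 was not compared with Orai3. Summed Stim counts were 5.65 ± 0.982 times the summed Orai counts (SD, n = 6).

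The transcript ends that the reads come from were compared with all other transcripts in words of 31 bases, the length on which Salmon works by default. Of the words in the last 500 bases of their coding transcripts, 2 of 1880 of Itpr2 were also found on the same strand in Itpr3 and 5 of 470 of Ryr1 in Ryr2, and the other 8 genes shared none on that strand. Read on the opposite strand, 837 of 964 words of Ryr3 lay in Aven and 154 of 1887 of Itpr1 in Gm44101, which had a count of 0 in every library, and those of the remaining 8 genes in no other gene. The GC content of the last 200 bases of the longest coding transcript ran from 27% in Ryr2 and 34.5% in Atp2a2 to 56.5% in Ryr1 and 57.5% in Atp2a3, with a median of 40.5% over protein-coding genes. Atp2a2, Stim2 and Orai1 lie on chromosome 5 and Itpr1 and Itpr2 on chromosome 6. Genes on the same strand lie within the span of Atp2a2 (Gm43359 with a mean of 3.9 CPM and Gm43360 with 0.878 CPM), but with no exon in its last 500 bases.

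The only grouping in these data is the plate, which is also the passage. It was tested over 15669 genes with edgeR's quasi-likelihood test, TMM scaling and Benjamini-Hochberg adjustment, and 0.185% of the genes had an adjusted p under 0.05, a number that ran from 0 to 1911 genes when 1 library was left out. Of the 10 calcium store genes 7 passed the filter on low counts and none was past the threshold in edgeR, and none in limma-voom, which called 0.191% of all genes. DESeq2 called 1 of the 7, and 3.89% of all genes. An unadjusted p under 0.05 in edgeR was found for 1 of the 7, where the share over all genes was 16.1%. That gene was Atp2a2. It had 88.2 ± 6.06 CPM on plate 1 and 168 ± 16.4 CPM on plate 2 (each SD, n = 3). After TMM scaling the values were 92.2, 96.0 and 102 CPM on plate 1 and 136, 156 and 168 CPM on plate 2, without overlap. Plate 2 over plate 1 was 0.66 on the log2 scale with a standard error of 0.12 (adjusted p = 0.0712 from edgeR), and the gene ranked 63 by p. This p fell under the threshold with DESeq2 (adjusted p = 0.00283) and with edgeR without the filter (0.00138), without scaling beyond the total (0.0273) and when the plate 2 library of middle total was omitted (0.00191), and lay between 0.00138 and 0.379 over all alternatives. On the log2 scale the difference lay between 0.59 and 0.93 over these alternatives. Genes of the mitochondrial chromosome took 3.98% to 4.85% of the counts on plate 1 and 4.62% to 7.27% on plate 2, and their part in the difference was not tested.

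Of the other 6 genes in the fit, Ryr3 had the largest difference and depended most on single libraries, with 0.17 to 0.86 on the log2 scale when 1 was left out (0.17 without plate 1 replicate 2, 0.23 without the plate 2 library of middle total and 0.86 without plate 1 replicate 3). Plate 2 over plate 1 in edgeR was 0.35 ± 0.17 (log2, standard error) for Itpr1 with an adjusted p of 0.347 and 0.43 ± 0.33 for Ryr3 with 0.582. For the sensors it was 0.23 ± 0.12 for Stim1 with an adjusted p of 0.384 and 0.07 ± 0.12 for Stim2 with 0.839, again from edgeR. Orai1 was at -0.35 ± 0.22 with an adjusted p of 0.489 and Itpr2 at -0.06 ± 0.23 with 0.935, from the same edgeR fit. Leaving out a library or the scaling turned the sign for Stim2 or Itpr2. The median over the 7 genes was 0.23, against 0.03 over all genes tested. The plate 2 libraries were all above those of plate 1 after TMM scaling for 2 of the 7 genes, Atp2a2 and Stim1, where the share over all genes was 12.8%. For Itpr1 and Stim2 the plates overlapped after TMM scaling and did not in CPM of the column total, a scale on which the median log2 change over all genes tested was 0.30. Stim2, for example, had a mean of 52.4 CPM on plate 1 and 66.1 CPM on plate 2 before TMM scaling. Atp2a3, Ryr1 and Ryr2 did not enter this fit. Fitted by edgeR with no filter, Ryr1 was at 2.00 ± 0.86 with an adjusted p of 0.303, from at most 4 counts in a plate 1 library and at most 25 in a plate 2 library. In the same fit Atp2a3 was at 0.78 ± 0.73 with an adjusted p of 0.708 and Ryr2 at 0.14 ± 1.70 with 0.978.

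**Figure D3:**
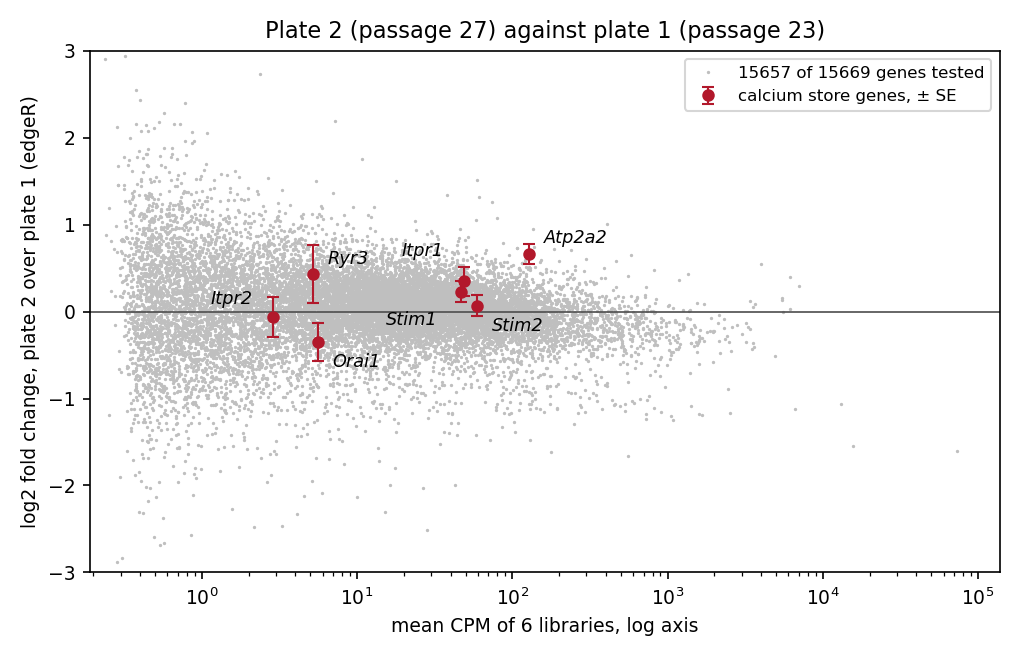
Log2 fold change of plate 2 over plate 1 from edgeR against the mean CPM of 6 libraries on a log axis, for 15657 of the 15669 genes tested (12 lie beyond 3 on the log2 scale) and, with standard errors, the 7 calcium store genes in the fit. Atp2a2 lies highest of the 7 at 0.66 and Orai1 lowest at -0.35.

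When the plate 2 library of middle total was omitted, Atp2a2 (120 CPM) and Stim2 (57.4 CPM) kept the highest means, and Itpr1 and Stim1 were both at 45.9 CPM. In that library Atp2a2 was 1 time, Stim2 1.05 times, Itpr1 1.09 times and Stim1 0.889 times the mean of the other plate 2 libraries. The lower genes were higher in it, with ratios of 1.43 for Orai1, 1.33 for Ryr3, 1.25 for Itpr2, 1.66 for Atp2a3, 1.8 for Ryr1 and 4.54 for Ryr2, the last from 5 counts. Without it, Ryr1 had a mean of 0.251 CPM in place of 0.344 CPM.

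The genes with the pattern most like that of Atp2a2 over the 6 libraries, among the 8658 genes that averaged 10 CPM or more, were Slc25a28 (a mitochondrial iron carrier), Top2b (a DNA topoisomerase) and Ift43 (a part of the ciliary transport complex). Pearson's r of log2(CPM + 1) was above 0.999 for all of them. An r of at least 0.9 was found for 1381 genes, so that likeness of that degree is common in 6 libraries that share 2 plates. Slc25a28, for example, had 17.1, 17.4 and 18.8 CPM on plate 1 and 28.3, 30.7 and 33.6 CPM on plate 2.

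The genes around the store were read from 9 lists of 98 protein-coding genes, of which 67 had at least 1 CPM in every library (68.4%, near the 65.6% of protein-coding genes), and none of the 81 in the edgeR fit differed between the plates at an adjusted p under 0.05 (14 at an unadjusted p under 0.05, where the share over all genes was 16.1%). Of these genes limma-voom called 0 of 81 and DESeq2 called 1 of 73, Gna11, where DESeq2's share over all genes was 3.89%. Gna11 was lower on plate 2, at -0.85 ± 0.14 (log2, standard error) with an adjusted p of 0.0563 from edgeR. It ranked 35 by p, ahead of Atp2a2 at 63, which went the other way. Upstream of the IP3 receptors, 7 of 12 genes for G proteins and phospholipase C had at least 1 CPM in every library, from Gna11 with 175 ± 42.6 CPM (SD, n = 6) to Plcd4 with 0.171 ± 0.127 CPM. Of the release channel partners 12 of 18 did. Fkbp1a, whose product binds and steadies ryanodine receptors, was highest with 597 ± 68.6 CPM (SD, n = 6), and the junctophilin genes Jph1 and Jph2, known from muscle, had a count of 0 in each library.

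Of the 7 regulators of SERCA 2 reached 1 CPM in every library. Tmx1, a thiol oxidoreductase of the store membrane, had 323 ± 73.7 CPM (SD, n = 6). The muscle inhibitor Sln and the muscle activator Strit1 (Gm34302 in the annotation) had a count of 0 in every library, and Pln, the phospholamban gene, had a mean of 0.0217 CPM. Mrln, the gene of the muscle inhibitor myoregulin, had 1.91 ± 0.653 CPM (SD, n = 6) with 16 to 94 counts per library. Among the partners of store-operated entry 9 of 13 reached 1 CPM, from Selenok with 183 ± 47.8 CPM (SD, n = 6) to Trpc5 with 0.00736 CPM, which rests on 1 count.

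Genes of proteins that hold calcium in the lumen had the highest median of the lists, 61.6 CPM with 12 of 15 genes at 1 CPM or more in every library, against 5.39 CPM for the 10 store genes themselves. Hsp90b1, a chaperone, had 1187 ± 321 CPM (SD, n = 6), and the calsequestrin gene Casq1 of skeletal muscle was lowest with 0.0338 ± 0.0291 CPM. Other leak and store channels reached 1 CPM for 6 of 7 genes, from Sec61a1 with 253 ± 90.5 CPM (SD, n = 6) to Tpcn2 with 0.141 CPM. Of the pumps and exchangers of the Golgi and plasma membrane 7 of 11 did, from Atp2b1 with 205 ± 30.8 CPM (SD, n = 6) to Slc24a1 with 0.0437 CPM. Of the genes for mitochondrial calcium uptake 10 of 11 did, from Vdac1 with 267 ± 15 CPM (SD, n = 6) to Slc8b1 with 0.584 CPM.

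**Figure D4:**
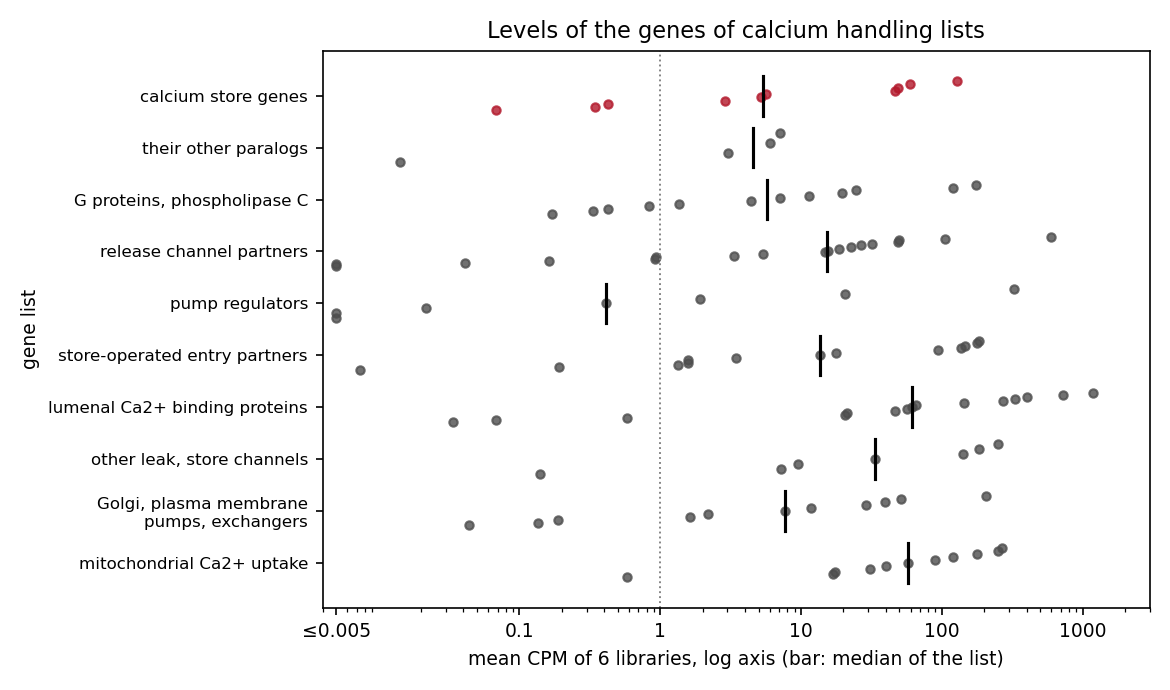
Mean CPM of 6 libraries on a log axis for each gene of the calcium store list (top) and of 9 lists around it, with a bar for the median of each list and a dotted line at 1 CPM; genes with a count of 0 are drawn at the left edge. The median of the 10 store genes is 5.39 CPM and that of the lumenal calcium binding proteins 61.6 CPM.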

How the data were processed

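The data are 6 libraries of 3′ mRNA from GLUTag cells. Per the labels and the paper's methods, the authors trimmed reads with Trim Galore 0.6.4 and assigned them with Salmon 1.5.1 to GENCODE M23 transcripts of GRCm38 without length correction. The authors deposited expected counts for each gene, not normalized, which were rounded for edgeR, DESeq2 and limma-voom. CPM used the unrounded counts and the column total (21399987 to 36488198). Names and positions are from GENCODE M21 on GRCm38, which held 54107 of the 54281 identifiers. Columns of plate 1 carry replicates 1 to 3, and columns of plate 2 were assigned to the plate alone.

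Pairs of genes were tested within libraries by sign-flip permutation, and plates by edgeR 4.0.16 (TMM, filterByExpr, robust). DESeq2 1.42.0, limma-voom 3.58.1, other scalings, filters, pseudocounts and leaving out each library were the alternatives (R 4.3.3, Python 3.11.15). On simulated counts for the plate comparison, edgeR recovered 200 of 200 genes changed 4-fold, with 3.38% false calls, and DESeq2 all 200 with 10.7% false calls. The simulation gave every gene a dispersion of 0.05 and held no library that stood apart. Its changes were also larger than that of Atp2a2 (0.66 on the log2 scale). It therefore checks the code and gives no power or error rate for these data. The genes named by rule are the 10 store genes, 4 paralogs, the highest and lowest genes of each list and the 3 genes most like Atp2a2; Pln, Mrln and the marker genes were named after their values were seen. The members and lists were chosen with earlier results of these data known, and 1 listed noncoding gene was left out. The study's secretion assays, knockdowns and other datasets were not used here.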

Additional observations from a re-analysis of the deposited data

Results flagged for a closer look

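Of 14 values checked (the CPM of the 10 calcium store genes and 4 paralogs over the 6 libraries of a single condition), 1 had a library that lay far from the rest, and chance gives about 1 in 20. For Orai2, plate 1 replicate 1 had 5.58 CPM while the remaining libraries had 7.16 to 7.78 CPM. The gap took up 0.717 of the range of the values, and the mean was 7.42 CPM when this library was omitted and 7.12 CPM with it.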

How the results depend on the processing

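The mean levels of the 10 genes moved by less than 1 SD with size factors of DESeq2, TMM scaling or a total without mitochondrial genes. Leaving out any library also moved them by less than 1 SD, but with 6 values the arithmetic allows no other outcome. The mean of Ryr1, for example, lay between 0.251 and 0.404 CPM when a library was left out. With a minimum of 5 CPM in every library 4 of the 10 genes were counted in place of 7. The share over all genes was not computed at 5 CPM, so this count has nothing to be set against. The 9 family pairs past the threshold kept their direction and their side of it under other scalings and pseudocounts, which is fixed by the arithmetic where a gene is higher in 6 of 6 libraries. Itpr2 against Itpr3 turned to -0.0101 with a pseudocount of 5 CPM and ranged from -0.16 to 0.11 when a library was left out, with the change of sign without plate 1 replicate 2. With 5 libraries no pair can reach 0.05, so these are values with no test.

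The number of genes that differ between plates was 29 with edgeR (2 higher on plate 2, 27 lower), 530 with DESeq2 (133 and 397), 1482 without scaling beyond the total (1411 and 71) and 545 without a filter (255 and 290). It ranged from 0 to 1911 over the fits that each left out a library, with 0 without plate 1 replicate 1 (1611 genes at an unadjusted p under 0.05) or the lowest total of plate 2 (2121), and 1911 without the one with the middle total. The cause was not tested. Stim1 passed the threshold without scaling beyond the total (adjusted p = 0.0401 from edgeR) and in no other alternative (up to 0.674). Without that scaling Itpr2 turned to 0.21. Leaving out a library gave -0.214 to 0.0514 for Itpr2 and -0.000613 to 0.14 for Stim2. It gave -0.59 to -0.19 for Orai1 and 0.25 to 0.55 for Itpr1, with no adjusted p under 0.05 from edgeR for either. Without scaling beyond the total Orai1 was at -0.085 and Itpr1 at 0.61 (adjusted p = 0.058 from edgeR for Itpr1). No paired analysis was possible because wells are numbered 1 to 6 across both plates in the labels, and the column names, which reuse 1 to 3, tie no well to another. Depth limits what can be said of Ryr1, Ryr2 and Atp2a1.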

Other observations

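A ratio of 2 genes within a library does not depend on how the library is scaled. Atp2b1, the gene of the plasma membrane pump that carries calcium out of the cell, was the highest calcium pump gene, and the ratio of Atp2a2 to Atp2b1 was 0.489, 0.51 and 0.474 in plate 1 replicates 1, 2 and 3 and 0.691, 0.758 and 0.748 in the plate 2 libraries with the lowest, middle and highest total. The ratio of Atp2a2 to Itpr1 was 2.56, 2.59 and 1.92 on plate 1 and 2.71, 2.71 and 3.18 on plate 2. Both ratios were higher in each library of plate 2, and both were chosen after the values were seen and were not tested.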
